A study of Homo sapiens with 6 samples.

Results

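The tubulin isotypes are the genes that encode α- and β-tubulin, the 2 subunits of the microtubule. Here 10 of them were examined as a group of 4 α genes (TUBA1A, TUBA1B, TUBA1C and TUBA4A) and 6 β genes (TUBB, TUBB2A, TUBB2B, TUBB3, TUBB4B and TUBB6). They were chosen by symbol, and all 10 had a row among the 27216 rows of the expression table. H1975 cells, an EGFR-mutant human lung adenocarcinoma line labelled wild type for genotype, were compared in 3 parental samples (0 h) and 3 adapted samples (72 h in 1000 nM of Osi, the EGFR tyrosine kinase inhibitor osimertinib). The adapted cells were those left after the apoptotic cells had been rinsed off. The sample labels give that dose, while a reagent list in the study's supplement gives another. The table names the columns of the 0 h samples after DMSO, and the series design lists DMSO or Osi for 0 or 72 h. Whether the 0 h samples received DMSO, and for what time, is left unsaid, so time in culture and Osi cannot be told apart. The sample labels also describe treating the RNA with RNase R, an enzyme that degrades linear RNA, whereas the methods of the study name total RNA alone. Nothing says whether the 3 samples of a group came from separate cultures, so the p-values measure the spread between these samples, which may be technical.

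Microtubules are hollow polymers of α/β-tubulin heterodimers that carry intracellular transport, shape the cell and form the mitotic spindle. Vertebrate cells hold several genes for each subunit. Their products share a near-identical core and differ most in the acidic C-terminal tail, which lies on the outer surface of the microtubule and is the site of most tubulin modifications. The amount of tubulin mRNA is also under feedback control. When free heterodimers are in excess, TTC5 binds the first residues of a nascent tubulin chain and recruits SCAPER and the CCR4-NOT deadenylase, and the mRNA is degraded.

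The 3′ ends of the coding sequences of TUBA4A and the 6 β genes are shown because they encode the tails by which the isotypes differ. Each run is the last 60 bases of the coding sequence with its stop codon, in GENCODE 29 (build GRCh38), 5′ to 3′, and capitals mark the codons for glutamate.
TUBA4A: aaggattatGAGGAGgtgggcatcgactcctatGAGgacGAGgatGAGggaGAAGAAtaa
TUBB: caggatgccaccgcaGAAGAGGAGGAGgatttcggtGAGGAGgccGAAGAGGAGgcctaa
TUBB2A: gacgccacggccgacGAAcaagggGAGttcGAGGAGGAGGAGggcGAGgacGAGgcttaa
TUBB2B: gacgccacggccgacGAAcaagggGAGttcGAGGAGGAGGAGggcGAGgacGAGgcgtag
TUBB3: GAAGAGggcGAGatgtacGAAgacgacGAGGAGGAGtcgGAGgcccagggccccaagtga
TUBB4B: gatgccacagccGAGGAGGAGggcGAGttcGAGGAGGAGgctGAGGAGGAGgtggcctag
TUBB6: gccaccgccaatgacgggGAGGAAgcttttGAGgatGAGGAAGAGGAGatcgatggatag

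These tails held between 7 (TUBA4A and TUBB6) and 10 (TUBB4B) glutamate codons among their last 19 codons. TUBA4A ended in a glutamate codon and so lacks the terminal tyrosine that other α-tubulins lose and regain in the detyrosination cycle. The coding sequences of TUBB and TUBB4B opened with atgagggaaatc, the codons for the residues that TTC5 reads. Those of the other β genes opened with codons for the same residues.

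The genes lie in several places in the genome. On chromosome 12, TUBA1B (chr12:49127782-49131397, minus strand), TUBA1A (chr12:49184796-49189324, minus strand) and TUBA1C (chr12:49188736-49274603, plus strand) form a cluster in which TUBA1A and TUBA1C overlap on opposite strands. TUBA4A lies at chr2:219249711-219278170 (minus strand). TUBB2A (chr6:3153669-3157526) and TUBB2B (chr6:3224261-3231730) are neighbours on the minus strand of chromosome 6, and TUBB (chr6:30720201-30725426, plus strand) lies farther along it. TUBB3 (chr16:89921392-89938761), TUBB4B (chr9:137241213-137243707) and TUBB6 (chr18:12307669-12344320) are on the plus strand. The transcript taken for each gene had 4 exons. The submitters' processing notes name hg38, and the annotation used for the table is not given in the sources used here.

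Expression is given as log2(FPKM + 1), a unit that was inferred from the values because the table does not name it. Comparisons of level between genes and sums over genes rest on that unit. FPKM stands for the fragments of a gene divided by transcript length and by the mapped fragments of the sample. No counts were analysed, so the depth is unknown and replicate spread is the only error given. Over a whole sample the linear values came to 375342 at the lowest and 387753 at the highest, and the lowest correlation between replicates across rows was 0.997 in the parental and 0.991 in the adapted group. All 6 epithelial markers were above the filter on low values (a mean of at least 1) and so were NKX2-1 and NAPSA of the 4 lung adenocarcinoma markers, whereas SFTPB and SFTPC were at or near 0. Of the leukocyte markers CD68 was above it, with PTPRC near 0 and CD3E listed at 0. The log2 values of CD68 were 6.22 to 6.27 in parental and 3.96 to 4.93 in adapted samples. No endothelial marker was above it, with PECAM1 at 0.996 to 1.40 and then 0.075 to 0.11, CDH5 at 0.16 to 0.27 and then 1.19 to 2.08, and VWF at 0.021 to 0.035 and then 0.12 to 0.34. Of the fibroblast markers COL1A1 was, at 1.99 to 2.04 in parental and 2.97 to 3.28 in adapted samples, while COL1A2 and DCN were near 0 and LUM was at 0.042 to 0.063 and then 0.53 to 0.73. The part of these markers in the changes of the isotypes was not tested.

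The tubulin isotypes changed in both directions in adapted cells, and the rise was largest for TUBA1A. By limma, with Benjamini-Hochberg adjustment over the 12656 rows tested and a threshold of 0.05, 7 of the 10 members were higher, 2 were lower and 1 did not pass. Over all rows tested 56.9% were called, 30.7% as higher and 26.2% as lower. The groups did not overlap for 9 of the 10 members, against 66.3% of all rows. The median log2 fold change was 0.75 over the members, 0.46 over the α genes and 0.77 over the β genes, and 0.028 over all rows tested. Every member had a mean above the filter in both groups, so none was tested only through the group in which it was high. In these bulk samples a change in the mix of cells and a change in the RNA of each cell cannot be told apart.

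**Figure D1:**
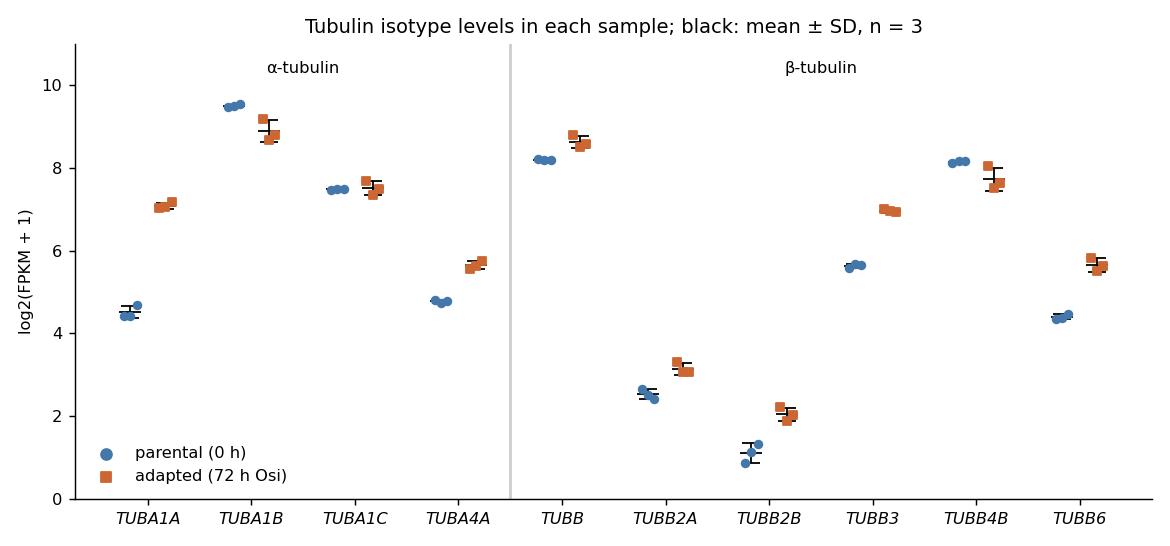
Level of each isotype as log2(FPKM + 1) in the 3 parental (circles) and 3 adapted (squares) samples, with black bars for the mean ± SD. The groups are apart for every gene but TUBA1C, with TUBA1A moving from a mean of 4.52 to 7.09 and TUBA1B falling from 9.50 to 8.89.

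Among the α genes, TUBA1A changed most. It is the isotype best known from developing neurons. Its log2(FPKM + 1) was 4.43, 4.43 and 4.69 in the parental samples and 7.04, 7.06 and 7.17 in the adapted samples. All 3 adapted values were well above the parental range, and the spread within each group was small beside the gap. The log2 fold change was 2.57 ± 0.087 (SE, n = 3 per group, limma adjusted p = 2.17e-06), and on the linear scale the mean FPKM went from 22.0 ± 2.48 to 135 ± 6.84 (SD), a ratio of 6.14. Of the 12656 rows tested, 50 had a larger log2 fold change.

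TUBA1B, the α gene that most dividing cells use in the largest amount, fell. Its values were 9.47, 9.49 and 9.54 in parental cells and 9.19, 8.68 and 8.80 in adapted cells, where replicate 1 was the highest and lay closest to the parental range. The log2 fold change was -0.61 ± 0.13 (limma adjusted p = 0.00609), from a mean FPKM of 724 ± 17.4 to 479 ± 92.4. It was still the isotype with the highest level in each of the 6 samples. TUBA1C, another broadly used α gene, had 7.48, 7.50 and 7.49 in parental and 7.69, 7.36 and 7.50 in adapted cells, with the parental values inside the adapted range. Its log2 fold change of 0.030 ± 0.089 did not pass (limma adjusted p = 0.792), and it was -0.06 without adapted replicate 1 (adjusted p = 0.420).

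TUBA4A, whose protein is made without the terminal tyrosine, rose. It read 4.81, 4.74 and 4.78 in parental and 5.56, 5.64 and 5.76 in adapted samples, with no overlap. The log2 fold change was 0.88 ± 0.068 (limma adjusted p = 5.70e-05) and the FPKM ratio 1.88. STK16, which overlaps TUBA4A on the opposite strand, had values of 3.98, 3.95 and 3.74 in parental and 3.90, 3.77 and 3.87 in adapted cells.

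Of the β genes, TUBB3, the class III isotype known from neurons and also found in some carcinomas, and TUBB6, the class V isotype, had the largest log2 fold changes with the added 1, whereas TUBB2B came first by FPKM ratio and with a pseudocount of 0.1. TUBB3 was at 5.58, 5.67 and 5.65 in parental cells and at 7.02, 6.95 and 6.94 in adapted cells, and the values within each group lay close together. Its log2 fold change was 1.33 ± 0.058 (limma adjusted p = 5.26e-06), from a mean FPKM of 48.7 ± 1.61 to 124 ± 3.79. The neuronal markers SYP, SNAP25, RBFOX3 and ELAVL4 were all below the filter, with 0 of 4 tested. Their highest mean log2 value was 0.14, ELAVL4 was listed at 0 in every sample, and the summed FPKM of the 4 was 0.0921 to 0.164 in parental and 0.176 to 0.211 in adapted samples.

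TUBB6 read 4.36, 4.38 and 4.48 in parental and 5.83, 5.50 and 5.64 in adapted samples, all 3 of which were above the parental range. The log2 fold change was 1.25 ± 0.091 (limma adjusted p = 4.59e-05), from 20.2 ± 0.933 to 49.7 ± 5.85 FPKM. AFG3L2, on the opposite strand and overlapping TUBB6, had 4.33, 4.36 and 4.37 in parental and 4.47, 4.27 and 4.16 in adapted samples.

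The class II pair TUBB2A and TUBB2B, which are enriched in neural tissue, had the lowest levels of the 10 genes. TUBB2A had log2 values of 2.66, 2.51 and 2.43 in parental and 3.30, 3.06 and 3.06 in adapted cells, a log2 change of 0.61 ± 0.099 (limma adjusted p = 0.00160). TUBB2B had 0.86, 1.13 and 1.33 in parental and 2.22, 1.88 and 2.03 in adapted cells, a log2 change of 0.93 ± 0.14 (limma adjusted p = 0.00125). Neither gene overlapped between the groups. PSMG4, on the opposite strand and overlapping TUBB2B, had 2.98, 2.99 and 3.06 in parental and 2.88, 2.34 and 2.54 in adapted samples. These values were lower in every adapted sample, and the part of PSMG4 in those of TUBB2B was not tested. Because the added 1 compresses low values, the FPKM ratio of TUBB2B, 2.67, was larger than its log2 fold change conveys and exceeded those of TUBB3 (2.55) and TUBB6 (2.46). With a pseudocount of 0.1 the log2 fold changes of the 3 genes were 1.37, 1.35 and 1.29.

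The broadly expressed β genes TUBB (class I) and TUBB4B (class IVb, also a component of cilia) moved apart. TUBB rose from 8.22, 8.20 and 8.20 in parental to 8.80, 8.51 and 8.59 in adapted samples. Its fold change was 0.43 ± 0.088 on the log2 scale (adjusted p = 0.00484) with an FPKM ratio of 1.35. TUBB4B was lower in adapted samples, with values of 8.13, 8.16 and 8.17 against 8.04, 7.51 and 7.63. The groups did not overlap, though adapted replicate 1 lay only just under the parental range. The log2 fold change of TUBB4B was -0.43 ± 0.13 (limma adjusted p = 0.0276), and this was the least stable call of the 10. Its adjusted p was 0.0676, 0.0781 and 0.0777 without parental replicate 1, 2 or 3, 0.0801 and 0.0818 without adapted replicate 2 or 3, and 0.107 with no filter. Without adapted replicate 1 it was 9.07e-05, with a log2 fold change of -0.59.

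**Figure D2:**
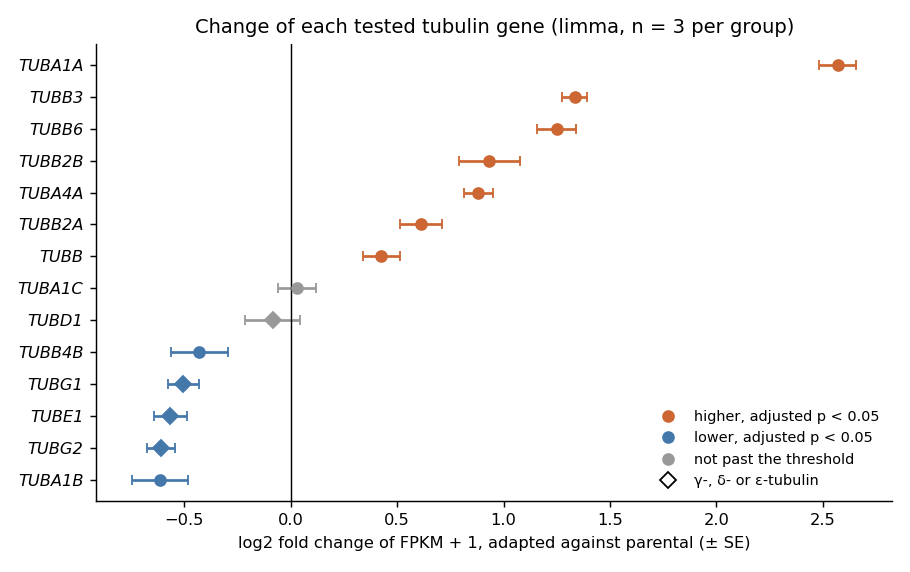
Log2 fold change of FPKM + 1 (adapted against parental, ± SE, limma, n = 3 per group) for the 10 isotypes (circles) and the γ-, δ- and ε-tubulin genes that were tested (diamonds), coloured by call at an adjusted p of 0.05. The values run from -0.61 for TUBA1B to 2.57 for TUBA1A, with TUBA1C and TUBD1 in grey as not past the threshold.

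The order of the levels, which can be compared if the values are FPKM and so scaled per length, changed in the middle of the list. In parental cells the mean FPKM was 724 for TUBA1B, 294 for TUBB, 284 for TUBB4B, 178 for TUBA1C, 48.7 for TUBB3, 26.4 for TUBA4A, 22.0 for TUBA1A, 20.2 for TUBB6, 4.79 for TUBB2A and 1.18 for TUBB2B. Of these neighbours, the sample ranges of TUBA1A and TUBB6 overlapped and those of the other pairs did not. In adapted cells the order was TUBA1B (479), TUBB (397), TUBB4B (213), TUBA1C (183), TUBA1A (135), TUBB3 (124), TUBB6 (49.7), TUBA4A (49.5), TUBB2A (7.86) and TUBB2B (3.14). TUBA1A thus stood at position 7 before and 5 after. Adapted ranges overlapped between TUBA1B and TUBB, between TUBB4B and TUBA1C, and between TUBB6 and TUBA4A.

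Summed over the 4 α genes, the FPKM was 934, 945 and 973 in parental and 966, 752 and 822 in adapted samples. These ranges overlapped, with means of 950.4 ± 20.1 and 847 ± 109 (SD, n = 3). Summed over the 6 β genes, it was 648, 655 and 656 in parental and 905, 720.4 and 762 in adapted samples, with no overlap and means of 653 ± 4.22 and 796 ± 96.8. Adapted replicate 1 had the highest sum of both classes in its group. In the adapted group the ratio of the α to the β sum lay within a narrower range than either sum. It was 1.44, 1.44 and 1.48 in parental and 1.07, 1.04 and 1.08 in adapted samples, so the adapted cells held nearly as much β as α tubulin mRNA by this measure.

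The make-up of each sum shifted. TUBA1A made up 2.32% ± 0.211 of the α sum in parental cells and 16.2% ± 2.29 in adapted cells. Over the same groups TUBA1B went from 76.1% ± 0.213 to 56.3% ± 3.59, TUBA4A from 2.78% ± 0.0969 to 5.93% ± 0.980, and TUBA1C from 18.8% ± 0.367 to 21.6% ± 0.361. Of the β sum, TUBB4B held 43.5% ± 0.368 in parental and 26.7% ± 2.09 in adapted cells, so that TUBB, at 45.1% ± 0.604 and 49.99% ± 0.689, changed from near parity with TUBB4B to well above it. The share of TUBB3 was 7.45% ± 0.206 and then 15.7% ± 1.42, and that of TUBB6 3.10% ± 0.128 and then 6.25% ± 0.156. TUBB2A and TUBB2B stayed under 2% of the sum in every sample. In none of the 10 shares did the groups overlap, and the shares of a sum are not independent of each other.

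**Figure D3:**
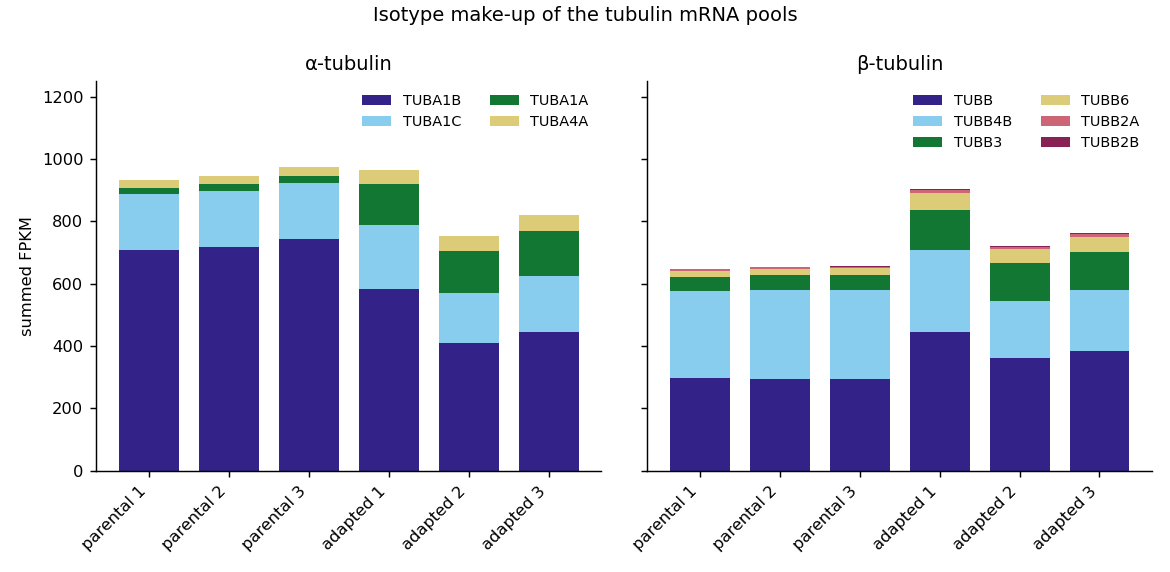
Summed FPKM of the 4 α genes (left) and 6 β genes (right) in each of the 6 samples, stacked by isotype on a shared linear axis. TUBA1A widens from 2.32% to 16.2% of the α sum on average, while TUBB4B narrows from 43.5% to 26.7% of the β sum.

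Log2 values were subtracted within each sample for 5 pairs of members, which gives log2 ratios of FPKM + 1. Only without the added 1 would such ratios not depend on how samples were scaled to each other. The log2 ratio of TUBA1A to TUBA1B was -5.04, -5.06 and -4.84 in parental and -2.15, -1.62 and -1.63 in adapted samples, a shift of 3.18. That of TUBB to TUBB4B was 0.088, 0.034 and 0.034 in parental and 0.76, 0.9998 and 0.96 in adapted samples, a shift of 0.85. The ratios of TUBB3 and of TUBB6 to TUBB4B shifted by 1.76 and 1.68, and that of TUBA1C to TUBA1B by 0.64. For all 5 ratios the groups were fully apart, and the two-sided exact permutation p was 0.1 each (0.1 after adjustment), the smallest that 3 against 3 samples can give. Each ratio has TUBA1B or TUBB4B, the members called lower, as its denominator. The separation thus restates the member values given above, and the test adds no support.

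How far these genes can be told apart in short reads depends on the sequence they share. The coding sequences of TUBA1A and TUBA1B were 97.2% identical, those of TUBB2A and TUBB2B 98.1%, and those of the other β pairs between 80.9% and 87.7%. In windows of 50 bases along the transcript, 48.2% of those of TUBA1A and 37.3% of those of TUBA1B occurred in no gene elsewhere in GENCODE 29, against 34.5% for TUBB2A and 47.8% for TUBB2B. TUBB3, TUBB4B, TUBA4A and TUBB6 had between 90.1% and 99.01%. Genes that overlap a member were left aside here unless they were tubulin genes, so TUBA1C was counted for TUBA1A. In windows of 100 bases the shares rose to 73.4% for TUBA1A, 62.8% for TUBA1B, 53.8% for TUBB2B and 43.6% for TUBB2A. How the counting assigned shared reads, its read length and its use of strand are not given in the sources used here. TUBA1C, with coding sequences 96.8% identical to TUBA1B and 95.9% to TUBA1A, had 74.9% of its windows of 50 bases in no gene elsewhere, but 43.0% within its coding part. The part of shared reads in the values of TUBA1A, TUBA1B, TUBA1C, TUBB2A and TUBB2B was not tested, and these 5 levels are uncertain to that extent. TUBB3 also lies within the read-through gene AC092143.1 on the same strand, which was listed at 0 in all 6 samples. Once that gene and the other overlapping genes left aside are counted too, 10.6% of the windows of 50 bases of TUBB3 occurred in no other gene. By this count the share was 12.9% for TUBA1B, 59.9% for TUBA1C, 67.4% for TUBA4A, 69.2% for TUBB and 85.4% for TUBB4B. It was unchanged for the other members. The levels of the genes with a lower share also rest on how such reads were assigned.

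None of the other tubulin genes that could be tested rose. Of 13 listed, 12 had a row and 4 passed the filter, of which 3 fell and 1 did not pass the test, with a median log2 fold change of -0.53. The γ-tubulins TUBG1 and TUBG2, which nucleate microtubules at the centrosome, fell by 0.50 and 0.61 in log2 terms (adjusted p of 0.000896 and 0.000233 by limma). TUBE1, an ε-tubulin of the centriole, fell by 0.56 (limma adjusted p = 0.000713). TUBD1, the δ-tubulin, had a log2 change of -0.08 (limma adjusted p = 0.603), which was 0.04 without adapted replicate 1. The other 8 were below the filter, among them TUBB4A, a further neuron-enriched β gene, with log2 values of 0.11, 0.15 and 0.10 in parental and 1.36, 0.86 and 0.71 in adapted samples. TUBA3C was listed at 0 throughout.

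Genes that act on tubulin were described by lists. Their counts are to be read beside all rows tested, of which 56.9% were called, 30.7% as higher and 26.2% as lower. A count near those shares says nothing particular about its list. Of 21 genes for tubulin folding, 6 rose, 7 fell and 8 did not pass, with a median log2 fold change of -0.02 that ran from -0.09 to 0.04 when each sample was left out in turn. PFDN2 (-0.58) and PFDN4 (-0.53), subunits of the prefoldin that hands tubulin to the chaperonin, and the chaperonin subunit CCT8 (-0.55) fell most. Another prefoldin subunit, PFDN1 (0.89), and the cofactors TBCD (0.53) and TBCC (0.50), which assemble the heterodimer, rose most. TBCE had a larger log2 fold change (0.95) that did not pass (limma adjusted p = 0.0622). Of the 13 genes of tubulin mRNA autoregulation, 0 rose, 8 fell and 5 did not pass, with a median of -0.26. When each sample was left out in turn, 0 to 1 rose and 6 to 8 fell. At a mean of at least 3, 11 were tested, of which 0 rose and 6 fell. CNOT6L (-0.57), a deadenylase, CNOT9 (-0.57) and CNOT11 (-0.51), all of CCR4-NOT, fell most. SCAPER had -0.42 (limma adjusted p = 0.00569) and TTC5 -0.13 (limma adjusted p = 0.213).

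Of the 25 genes of tubulin modification, 18 were tested, of which 8 rose, 2 fell and 8 did not pass, with a median of 0.19. TTLL1, a polyglutamylase that acts on the glutamates of the tail, had the largest log2 fold change, from log2 values of 0.82, 0.91 and 0.57 to 1.94, 1.90 and 2.13, a log2 change of 1.22 ± 0.12 (limma adjusted p = 0.000152). VASH2, which removes the terminal tyrosine of α-tubulin, went from 0.60, 0.49 and 0.67 to 1.55, 1.62 and 1.64, a log2 change of 1.02. Both genes had a parental mean under 1 and passed the filter only through the adapted group, so that their calls, which are among the 8, are no support for a change of the list, and with a pseudocount of 0.1 the log2 fold changes were 1.96 and 1.84. The deacetylase HDAC6 rose by 0.59, and so did the acetyltransferase ATAT1, by 0.46 (limma adjusted p = 0.00704). SIRT2, another deacetylase, had 0.02 and did not pass (limma adjusted p = 0.827). TTL, the ligase that puts the tyrosine back, stood at 0.45 (limma adjusted p = 0.00874), and SVBP, the partner of VASH2, 0.50 (limma adjusted p = 0.00240). The 2 that fell were TTLL12 (-0.97) and the polyglutamylase TTLL4 (-0.71). Leaving out each sample in turn gave 8 to 9 that rose and 2 to 3 that fell. With a mean of at least 3, 9 were tested, of which 3 rose and 2 fell, and the median was 0.02.

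Of the 19 genes of nucleation, which include TUBG1 and TUBG2, 14 fell, 1 rose and 4 did not pass, with a median of -0.47. MZT1 (-1.45) and MZT2B (-0.79), small partners of the γ-tubulin complex, and HAUS8 (-0.74), of the augmin complex that branches microtubules, fell most. TUBGCP6, the gene that rose (0.28), did not pass without parental replicate 2 (adjusted p = 0.0564) or 3 (adjusted p = 0.0529). Of the 12 genes of spindle microtubule proteins 11 fell, with a median of -1.82. NUSAP1 (-2.69), CKAP2L (-2.24) and HMMR (-2.10) fell most, and NUMA1 (0.38), which tethers microtubule minus ends at the spindle pole, was the gene that rose. The summed FPKM of these 12 was 460 to 477 in parental and 178 to 225 in adapted samples, with the highest adapted sum in replicate 1. That replicate was also the highest of the adapted samples for 8 of the 10 isotypes, all but TUBA1A and TUBA4A.

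Lattice-binding proteins moved both ways. Of 20 listed, 12 were tested, of which 4 rose, 5 fell and 3 did not pass, with a median of -0.13. MAP1B, which stabilises microtubules in axons, rose from 2.71, 2.77 and 2.72 to 4.56, 4.54 and 4.57, a log2 change of 1.82 ± 0.057 (limma adjusted p = 1.69e-06), and its groups were far apart. MTUS1 (0.72) and MAP7D3 (0.59) also rose, while EML2 (-1.02), MAP7 (-0.70) and EML4 (-0.68) fell. The number that fell was 3 without parental replicate 1 or without parental replicate 3. The median was -0.21 without adapted replicate 1, -0.07 without adapted replicate 3 and -0.02 with a mean of at least 3.

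Of 12 plus-end proteins, 3 rose, 4 fell and 5 did not pass, with a median of 0.07. The microtubule polymerase CKAP5 (-1.17) fell most, followed by CLIP2 (-0.30) and MAPRE3 (-0.25). MAPRE2 (0.57), the dynactin subunit DCTN1 (0.44) and MAPRE1 (0.27) rose. MAPRE3 did not pass without parental replicate 2 (adjusted p = 0.0642) or 3 (adjusted p = 0.0751). The number that rose was 6 without adapted replicate 1, and the number that fell was 2 without parental replicate 2 or without parental replicate 3. The median was 0.030 without parental replicate 3, 0.042 without adapted replicate 2 and 0.15 with a mean of at least 3.

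Of 14 destabilizing and severing proteins, 10 were tested, of which 3 rose, 4 fell and 3 did not pass, with a median of -0.24. The depolymerizing kinesins KIF2C (-2.09) and KIF2A (-0.75) and the stathmin-family gene STMN3 (-1.38) fell most. The severing-family genes FIGN (0.42), SPAST (0.33) and KATNAL1 (0.32) rose. KATNAL1 did not pass without parental replicate 1 (adjusted p = 0.1003), 2 (0.0652) or 3 (0.0553) or without adapted replicate 2 (0.0633), nor with no filter (0.0612) or with quantile normalization (0.0504). With a mean of at least 3, 5 genes of the list were tested, of which 0 rose and 3 fell, and the median was -0.37.

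**Figure D4:**
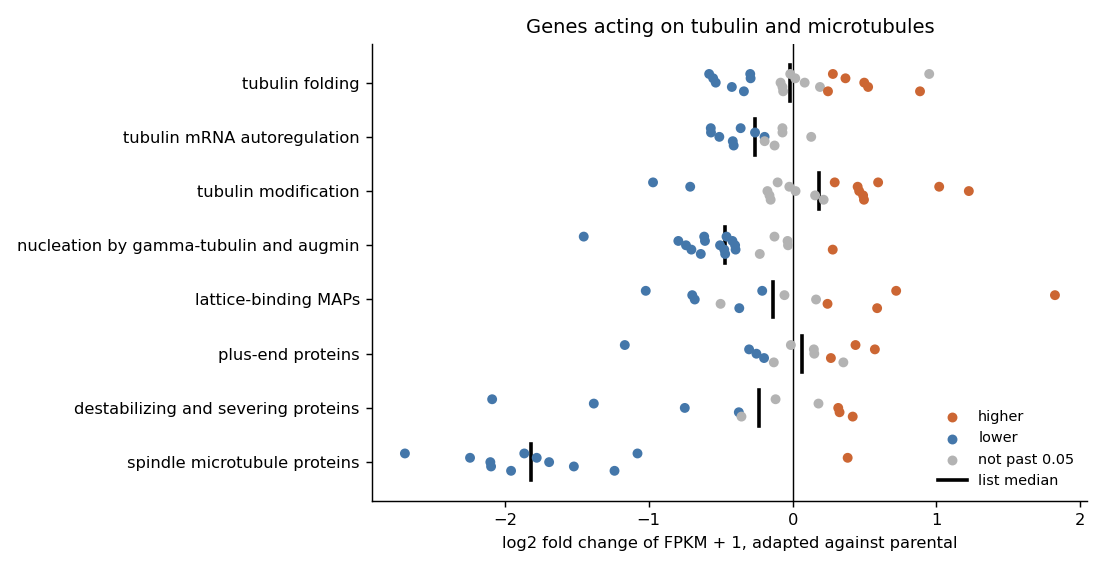
Log2 fold change of FPKM + 1 (adapted against parental) of every tested gene in 8 lists of genes that act on tubulin and microtubules, coloured by call at an adjusted p of 0.05, with a bar at the median of each list. The spindle list lies to the left with a median of -1.82, and the medians of the other 7 lists run from -0.47 to 0.19.

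The genes whose pattern over the 6 samples was most like that of TUBA1A and of TUBA1B were found among 11697 named rows by the root-mean-square distance between log2 values taken from their parental mean. For TUBA1A they were GLIPR2 (distance 0.113), CPT1A (0.113) and OR2I1P (0.143). With a pseudocount of 0.1 their log2 fold changes were 3.67, 3.17 and 2.95, against 2.62 for TUBA1A, so the likeness depends on the added 1. GLIPR2 had parental log2 values of 0.52 to 0.72 and passed the filter only through the adapted group. The adapted values of CPT1A carry an added constant of 0.66 on the log2 scale in the deposited table, so its likeness depends on that constant, while no isotype row carried one. For TUBA1B they were BHLHE41 (0.027), IL6 (0.029) and SSBP4 (0.029), with log2 fold changes of -0.60, -0.63 and -0.62. BHLHE41, a gene at low values, had adapted log2 values of 0.51 to 1.03 and passed the filter only through the parental group. Its log2 fold change was -1.14 with a pseudocount of 0.1.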

How the data were processed

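RNA of 6 samples of H1975 cells was measured, 3 per group. The authors deposited 1 table of log2 values with 27216 rows and 1 column per sample. Its columns are named for DMSO and Osi with a replicate number and were matched to the labels by group and number. The unit is not named in the table. It was taken as log2(FPKM + 1) because the values return to numbers of 6 decimals when the log2 and the 1 are undone, except in 147 rows in which 1 group carries an added constant (0 of them members or listed genes). The submitters' processing notes name hg38, Bowtie2 2.1.0, STAR and edgeR without their roles, and the methods of the study name DESeq2. That tool needs counts, so limma 3.58.1 in R 4.3.3 was used (lmFit, eBayes with an intensity trend, unpaired, Benjamini-Hochberg over the 12656 rows with a mean of at least 1, threshold 0.05), after a test on simulated data. Sums and shares were formed on the linear scale. Sequences and positions come from GENCODE 29, read with Python 3.11 and Biopython 1.88. Some sequences are not reported here.

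The members, gene lists and tests were chosen with earlier results of these data known. The text names the 10 members, the other tubulin genes tested, from each list the called genes without overlap between groups that changed most (at most 3 in each direction), and the 3 rows nearest in pattern to the members that rose and fell most. AC092143.1, AFG3L2, PSMG4 and STK16 were added as overlapping genes. ATAT1, SCAPER, SIRT2, SVBP, TBCE, TTC5, TTL, TUBA3C and TUBB4A were picked once their values were known. Other settings tried were no filter, a pseudocount of 0.1, a mean of at least 3, 4 other scalings, other variance models, the replicate number as a block, removal of the added constants or of rows named NewGene_, and leaving out each sample.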

Additional observations from a re-analysis of the deposited data

How the results depend on the processing

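Under 18 alternative fits, 171 of the values of the 10 isotypes kept their direction and their side of the threshold. The exceptions were TUBB4B, which lost its call in 6 fits (log2 fold change between -0.59 and -0.32 over all fits, highest adjusted p = 0.107), and TUBA1C, between -0.0558 and 0.11 when each sample was left out in turn (negative without adapted replicate 1). Hence 7 isotypes were higher in every fit but the one with a mean of at least 3, where 5 were, since TUBB2A and TUBB2B were not tested there. The number lower was 1 with no filter and 1 to 2 when each sample was left out in turn. TUBA1A stayed between 2.53 and 2.66 on the log2 scale and TUBB3 between 1.31 and 1.38. Of the values of the other named genes, 874 were alike in this sense, 11 lost their call and 1 turned direction (TUBD1, between -0.17 and 0.0381 over the fits that left out a sample, positive without adapted replicate 1). The number of rows past the threshold was 4532 with a mean of at least 3, a fit with fewer rows tested, against 7202. With quantile normalization the rise in share was 2.34 percentage points for TUBA1C and 2.90 for TUBB6, against 2.86 and 3.15, and the cause was not tested.

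Samples with the same replicate number did not deviate together (correlations of -0.05, -0.03 and -0.02). With 3 samples per group this check is weak, and the numbers may still pair them. With the replicate block, 6761 rows passed with 7 isotypes higher and 2 lower, while KATNAL1 did not pass (adjusted p = 0.0663). Without counts, the depth behind each value is unknown, and the added 1 compresses the changes of low genes such as TUBB2A and TUBB2B.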
